A study of Homo sapiens with 6 samples.

Results

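The genes described here are 10 genes that carry iron into, through and out of the cell. They are TFRC, SLC11A2 and STEAP3 for uptake, FTH1, FTL, PCBP1 and NCOA4 for storage and its turnover, SLC40A1 for export, and IREB2 and ACO1 for sensing. They were picked by name from the 58735 genes of 1 expression table, and the choice was made with the values of this same comparison known. Their levels and differences between the groups were part of what they were chosen by and are therefore given as a description, with no test. Tests are given for 97 of 122 other genes of iron handling. These were listed by role and not for how they moved, but with earlier results of these data known.

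The libraries are labelled Hep3B, an established line from a human hepatocellular carcinoma. The 3 libraries of the first group carried a short hairpin RNA against HYOU1 (HYOU1 shRNA), and the 3 libraries of the second group carried a control short hairpin RNA (control shRNA). HYOU1 makes an HSP70-related chaperone that folds proteins in the endoplasmic reticulum, and the comparison asks what its knockdown does to the transcriptome. The labels name 1 cell line and a single hairpin label per group, and give no hairpin sequence, so an effect of HYOU1 loss and an off-target effect of that hairpin cannot be told apart. They do not say whether the 3 libraries of a group came from separate cultures, so the p-values below reflect only how much these libraries scatter, which may be technical scatter.

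Animal cells take up most of their iron as transferrin bound to the transferrin receptor, which is taken into endosomes where the iron is freed, reduced and pumped into the cytosol. Iron that is not used at once is stored inside ferritin shells, and ferroportin is the only known route of iron export. Supply and storage are balanced after transcription by the iron regulatory proteins, which bind hairpins called iron-responsive elements (IREs) in the mRNA when the cell is short of iron. Binding in the 3′ untranslated region (UTR) of the transferrin receptor mRNA protects it from decay, and binding in the 5′ UTR of ferritin and ferroportin mRNAs blocks their translation. The liver is the main store of body iron and the source of hepcidin, the hormone that closes ferroportin. The values below are mRNA levels, and translation and protein were not measured.

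IRE sites are shown for the 5 genes of the 10 that carry a known IRE, since the iron regulatory proteins act through them. UTRs of the GENCODE 29 transcripts (GRCh38) were searched on the sense strand for an unpaired C, 5 bases, the loop CAGTGN and 5 more bases. The bases before the loop had to pair with those after it at 4 or more of 5 positions, G-T pairs included. Each sequence is 30 bases long and is written 5′ to 3′ with T for U. Capitals mark the unpaired C and the 6-base loop.
TFRC 3′ UTR, site 1 (chr3:196050978-196051007, minus strand): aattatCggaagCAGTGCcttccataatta
TFRC 3′ UTR, site 2 (chr3:196050574-196050603, minus strand): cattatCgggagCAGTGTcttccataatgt
TFRC 3′ UTR, site 3 (chr3:196050509-196050538, minus strand): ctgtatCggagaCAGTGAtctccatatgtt
TFRC 3′ UTR, site 4 (chr3:196050462-196050491, minus strand): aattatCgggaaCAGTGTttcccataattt
SLC11A2 3′ UTR (chr12:50988268-50988297, minus strand): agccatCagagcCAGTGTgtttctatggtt
FTH1 5′ UTR (chr11:61967573-61967602, minus strand): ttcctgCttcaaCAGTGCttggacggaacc
FTL 5′ UTR (chr19:48965335-48965364, plus strand): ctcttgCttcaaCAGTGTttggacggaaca
SLC40A1 5′ UTR (chr2:189580660-189580689, minus strand): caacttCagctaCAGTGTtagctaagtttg

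The TFRC sites found by this search lie in 3 of 3 coding transcripts of the gene, and each pairs at 5 of 5 stem positions. SLC11A2 has its site in 5 of 18 coding transcripts, with 4 of 5 positions paired, and SLC40A1 in 1 of 5, with 5 of 5 paired. Both ferritin sites pair at 5 of 5 positions, and they stand in 7 of 8 coding transcripts of FTH1 and in 1 of 1 of FTL. Of the 10 genes 7 held a match, because IREB2 and ACO1 each also had 1 match in the 3′ UTR of 1 of 3 transcripts, with 4 of 5 positions paired. STEAP3, NCOA4 and PCBP1 had none. The same pattern was found in the 3′ UTR of 4.74% of 19146 coding genes and in the 5′ UTR of 1.53% of 19043. A match describes the letters and does not show binding, and an IRE that departs from the pattern would be missed.

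The targeted gene followed its labels. Levels are given in FPKM (fragments per kilobase of gene, scaled by a size factor of each library). HYOU1 (ENSG00000149428, chr11:119044189-119057202) was at 2.35, 2.32 and 2.37 FPKM in HYOU1 shRNA libraries 1 to 3, against 37.6, 58.2 and 59.5 FPKM in control shRNA libraries 1 to 3. It fell by 4.38 on the log2(FPKM + 0.1) scale (standard error 0.20, limma adjusted p = 0.00119). Each library held 16893091 to 18233240 fragments, as recovered from the deposited values. Control replicate 1 stood apart from the other controls. Across the 12448 genes that averaged 1 FPKM or more its values correlated with theirs at 0.906 and 0.892, against 0.971 between control replicates 2 and 3. When the genes were cut into 10 equal bins by GC content, its median log2 level relative to those libraries was 0.76 in the bin poorest in GC and -1.0 in the richest. Most differences between the groups are therefore also given without that library. For HYOU1 the log2 difference was then -4.59. Mitochondrial genes took 3.39% to 3.84% of the fragments in HYOU1 shRNA libraries and 4.96% to 7.59% in control shRNA libraries. Of 12 hepatocyte markers 1 (HNF4A) averaged at least 1 FPKM. ALB, APOA2, APOB and TTR were listed at 0 in all 6 libraries. Thus 4 defining markers of the labelled tissue were absent and all but HNF4A averaged under 1 FPKM. Of 6 biliary markers 4 (KRT7, KRT19, EPCAM and SOX9) averaged at least 1 FPKM. These levels go against the labelled tissue, and the identity of the cells was not tested. The summed level of the 12 hepatocyte markers was 2.14 to 2.54 FPKM with the HYOU1 shRNA and 3.72 to 4.53 FPKM in controls. In bulk RNA a lower level can come from fewer cells of a type or from less RNA per cell, which cannot be told apart. The part of these library differences in the results below was not tested.

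Transferrin receptor mRNA was 3.27-fold lower in cells with the HYOU1 shRNA than in control cells. TFRC (ENSG00000072274, chr3:196027183-196082189, minus strand) encodes the receptor that internalises iron-loaded transferrin. Its level was 9.98, 10.1 and 8.32 FPKM in HYOU1 shRNA libraries 1 to 3, and 38.5, 28.4 and 27.5 FPKM in control shRNA libraries 1 to 3. The highest HYOU1 shRNA library lay far below the lowest control, and control replicate 1 was the highest of all 6. The means were 9.46 ± 0.987 FPKM with the HYOU1 shRNA and 31.5 ± 6.12 FPKM in controls (SD, n = 3 each). On the log2(FPKM + 0.1) scale the difference was -1.71 with a standard error of 0.17. It was -1.56 without control replicate 1 and -1.57 after a correction for GC content, and it lay between -1.80 and -1.56 over the 17 alternative treatments of the data. Among the 12448 genes tested this was the 109th lowest difference. Between 1148 and 5183 fragments per library stood behind these levels.

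**Figure D1:**
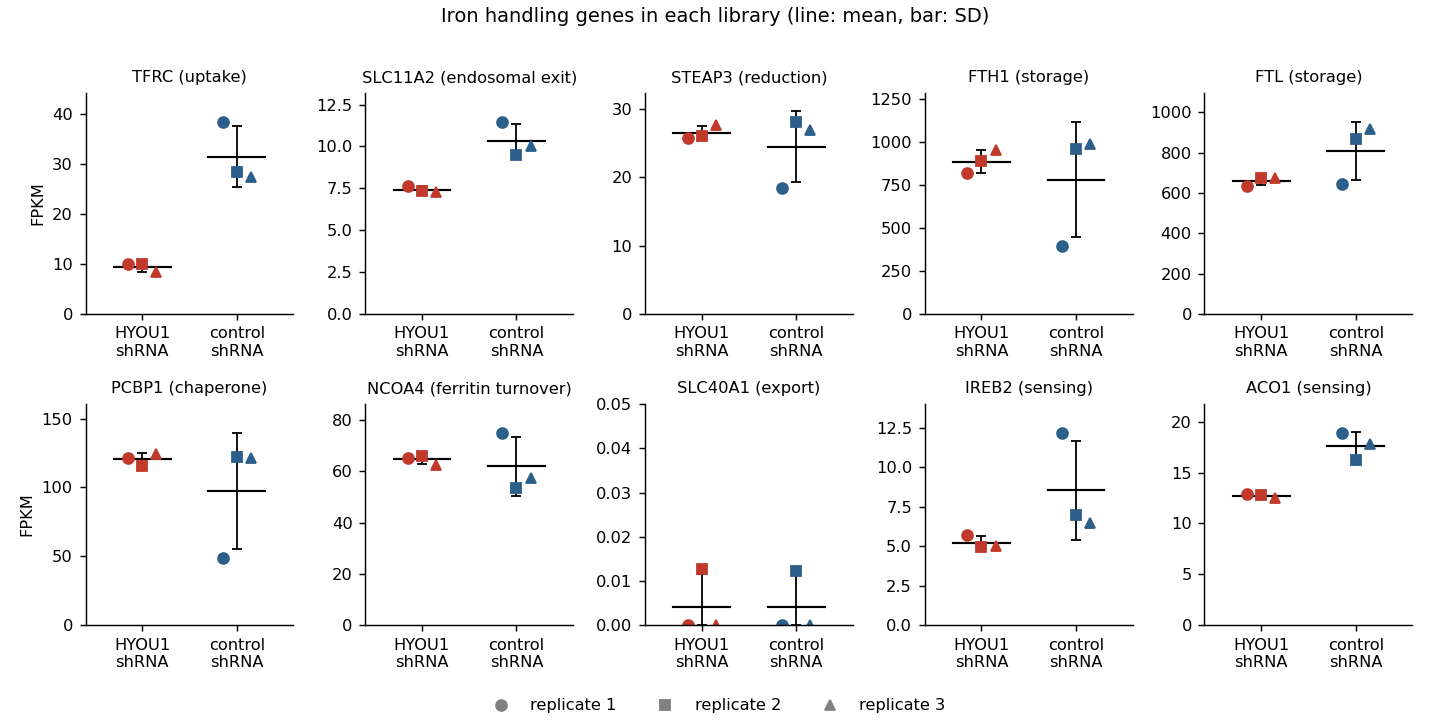
FPKM of the 10 iron handling genes in each of the 6 libraries, with HYOU1 shRNA on the left and control shRNA on the right of each panel. Points are libraries, lines are group means, bars are SDs cut at 0, and each axis has its own scale from 0. TFRC, SLC11A2, IREB2 and ACO1 did not overlap between the groups, and control replicate 1 (circle) lay apart from the other controls for FTH1, FTL, STEAP3 and PCBP1 on the low side.

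The other members of the uptake route differed less. SLC11A2 (ENSG00000110911, chr12:50979401-51028566, minus strand) encodes DMT1, the transporter that moves ferrous iron out of the endosome. Its level was 7.64, 7.36 and 7.29 FPKM in HYOU1 shRNA libraries 1 to 3, and 11.5, 9.51 and 10.002 FPKM in control shRNA libraries 1 to 3. The groups did not overlap. Their log2 difference was -0.47 with a standard error of 0.12, which is 1.38-fold lower. It was -0.39 without control replicate 1. A gene-level value cannot separate the SLC11A2 transcripts with the IRE from those without it.

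STEAP3 (ENSG00000115107, chr2:119223831-119265652, plus strand) encodes the endosomal reductase that turns ferric into ferrous iron before DMT1 moves it. It stood at 25.7, 26.1 and 27.7 FPKM in HYOU1 shRNA libraries 1 to 3, and at 18.5, 28.2 and 26.9 FPKM in control shRNA libraries 1 to 3. The groups overlapped, and control replicate 1 alone was low. Their difference was 0.13 on the log2 scale with a standard error of 0.18, and took the other sign both when control replicate 1 was left out (-0.06) and after the GC correction (-0.06).

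Ferritin mRNAs were the most abundant of the 10, and control replicate 1 moved their differences between the groups. Without it the difference of FTH1 turned negative and that of FTL became more negative. Ferritin shells mix heavy chains, which oxidise iron for storage, with light chains, which help to build the mineral core. FTH1 (ENSG00000167996, chr11:61959718-61967660, minus strand), the heavy chain, was at 819, 887 and 955 FPKM in HYOU1 shRNA libraries 1 to 3, and at 394, 961 and 991 FPKM in control shRNA libraries 1 to 3. Control replicate 1 held less than any other library, while the other controls lay just above every HYOU1 shRNA library. The log2 difference was 0.30 with a standard error of 0.35 over all libraries. It was -0.14 with a standard error of 0.08 without control replicate 1, so its direction turned with that library, and the GC correction left it at 0.28.

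FTL (ENSG00000087086, chr19:48965301-48966878, plus strand), the light chain, was at 637, 675 and 672 FPKM in HYOU1 shRNA libraries 1 to 3, and at 646, 867 and 916 FPKM in control shRNA libraries 1 to 3. Control replicate 1 lay within the HYOU1 shRNA range and the other controls lay above it. The log2 difference was -0.28 with a standard error of 0.15. It was -0.43 when control replicate 1 was left out and -0.45 after the GC correction. The ratio of light to heavy chain mRNA, both per length, was 0.778, 0.761 and 0.704 in HYOU1 shRNA libraries 1 to 3, and 1.64, 0.902 and 0.924 in control shRNA libraries 1 to 3. Every HYOU1 shRNA library had a lower ratio than every control.

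Ferritin genes have many processed pseudogenes that can share reads with them. The 25 named FTH1 pseudogenes summed to at most 22.8 FPKM in any library. Their fragments were at most 1.27% of those of FTH1 and these pseudogenes together. The 16 named FTL pseudogenes summed to at most 3.09 FPKM, and to 0.196% of the fragments of FTL and these pseudogenes together. The levels of both ferritin genes are uncertain to the extent that the counting assigned shared reads to 1 copy, and the sources used here do not say how it did so.

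The genes that load and unload ferritin overlapped between the groups. PCBP1 (ENSG00000169564, chr2:70087454-70089203, plus strand), an iron chaperone that delivers iron to ferritin and also binds RNA, was at 121, 116 and 124 FPKM in HYOU1 shRNA libraries 1 to 3, and at 49.1, 122 and 122 FPKM in control shRNA libraries 1 to 3. Control replicate 1 was far below the other libraries, which lay close together. The difference on the log2 scale was 0.42 with a standard error of 0.35, and -0.02 with a standard error of 0.06 without that library.

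NCOA4 (ENSG00000266412, chr10:46005088-46030714, minus strand) encodes the receptor that carries ferritin to the autophagosome for breakdown. It was at 65.4, 65.8 and 62.7 FPKM in HYOU1 shRNA libraries 1 to 3, and at 75.0, 53.3 and 57.4 FPKM in control shRNA libraries 1 to 3. Here control replicate 1 was the highest library and the other controls were the lowest, so the groups overlapped through 1 library. Their log2 difference was 0.08 with a standard error of 0.15, 0.22 without control replicate 1, -0.02 without control replicate 2 and -0.04 after quantile normalization. The 3 named NCOA4 pseudogenes were listed at 0.

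Ferroportin mRNA was not detectable at this depth in either group. SLC40A1 (ENSG00000138449, chr2:189560579-189583758, minus strand) encodes that exporter. It had 1 fragment in HYOU1 shRNA replicate 2 and 1 in control shRNA replicate 2, and was listed at 0 in the other libraries. A count of 0 allows up to 3 fragments, which for this gene is 0.0370 to 0.0406 FPKM, counting error only. No fold change is given, since both groups lay under that limit.

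Both iron regulatory proteins had lower mRNA levels with the HYOU1 shRNA. IREB2 (ENSG00000136381, chr15:78437431-78501456, plus strand) encodes IRP2, which is destroyed when iron is plentiful. It was at 5.68, 4.92 and 4.999 FPKM in HYOU1 shRNA libraries 1 to 3, and at 12.2, 6.96 and 6.47 FPKM in control shRNA libraries 1 to 3. The groups did not overlap, and control replicate 1 was far above the other controls. The log2 values differed by -0.65 with a standard error of 0.25, and -0.37 without that library, so the value depended on it.

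ACO1 (ENSG00000122729, chr9:32384603-32454769, plus strand) encodes IRP1, which works as a cytosolic aconitase when it holds an iron-sulfur cluster and binds IREs when it does not. Its level was 12.9, 12.8 and 12.5 FPKM in HYOU1 shRNA libraries 1 to 3, and 18.9, 16.2 and 17.8 FPKM in control shRNA libraries 1 to 3. The groups did not overlap and the spread within each was small. The log2 difference was -0.46 with a standard error of 0.11, a 1.38-fold lower level, and it lay between -0.54 and -0.39 over the alternatives. The ratio of TFRC to ACO1, both per length, was 0.775, 0.790 and 0.663 in HYOU1 shRNA libraries 1 to 3, and 2.04, 1.75 and 1.54 in control shRNA libraries 1 to 3. The receptor was thus the less abundant mRNA of the pair with the HYOU1 shRNA and the more abundant in controls.

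**Figure D2:**
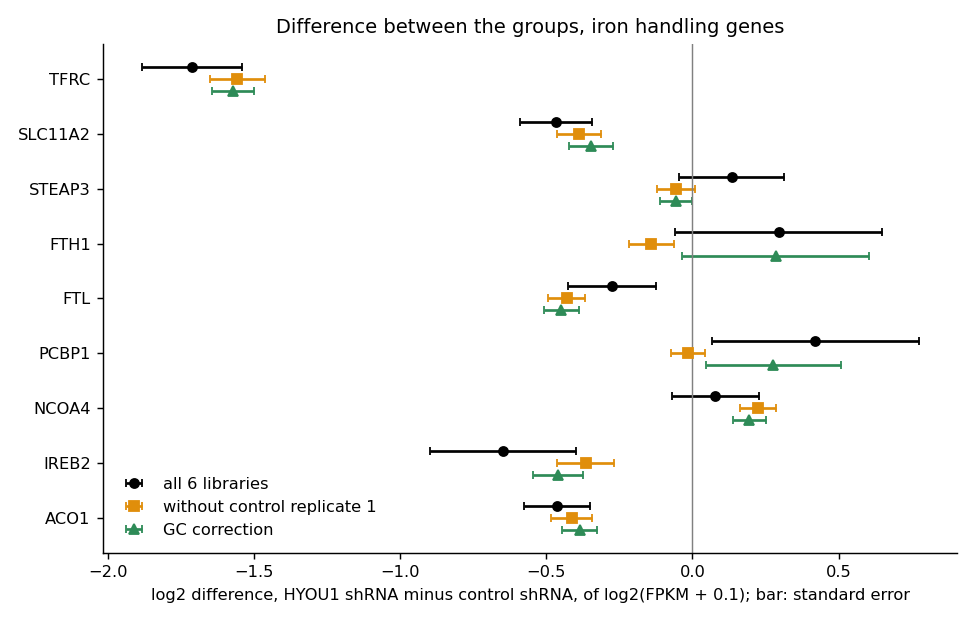
Log2 difference of HYOU1 shRNA minus control shRNA with its standard error for the 9 iron handling genes that averaged 1 FPKM or more, from all 6 libraries (circles), with control replicate 1 left out (squares) and after the GC correction (triangles). TFRC lay between -1.71 and -1.56 in the 3 versions. FTH1 and PCBP1 changed sign without control replicate 1, and STEAP3 did so in both alternatives shown.

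Of the 10 genes 9 reached a mean of 1 FPKM and entered the fit across the table, and SLC40A1 did not. That fit called 2 of the 10, TFRC and ACO1, both lower, where 12.3% of the 12448 genes were called in either direction and 5.66% were called lower. TFRC, SLC11A2, IREB2 and ACO1 were lower in every HYOU1 shRNA library than in any control, as were 20.6% of all genes tested. No gene of the 10 was higher without overlap, and 5 of the 9 overlapped. The median log2 difference of the 9 was -0.28, against 0.04 over all genes tested. Without control replicate 1 the fit called 6 of the 10, with NCOA4 higher and TFRC, FTL, SLC11A2, IREB2 and ACO1 lower, where 44.3% of all genes were called. After the GC correction 6 were called, 5 of them lower, where 40.6% of all genes were called. Leaving out another library lost calls. TFRC alone stayed called without HYOU1 shRNA replicate 1, HYOU1 shRNA replicate 2, control replicate 2 or control replicate 3, where 1.01%, 0.683%, 2.87% and 8.21% of all genes were called. No member was called without HYOU1 shRNA replicate 3, where 0.394% of all genes were. Since the genes were chosen by this contrast, nothing is read from these counts.

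Control replicate 1 differed from the other controls in a different direction for different members, and most for FTH1 and PCBP1. In that library, relative to the other controls, the log2 level was 0.85 higher for IREB2 (38.3% GC), 0.46 for TFRC (41.5%), 0.23 for SLC11A2 (43.0%), 0.44 for NCOA4 (43.1%) and 0.15 for ACO1 (45.7%). These genes of low GC content were all higher there. It was -0.46 for FTL (56.3%) and -0.57 for STEAP3 (56.9%), near the median of -0.52 for genes of like GC content. FTH1 (50.1%) was at -1.31, where the median of its GC bin was -0.10 and 2.49% of the bin were lower. PCBP1 (55.2%) was also at -1.31, and 4.42% of its bin were lower. After the GC correction the log2 difference between the groups was 0.28 for both, against 0.30 for FTH1 and 0.42 for PCBP1 before it.

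**Figure D3:**
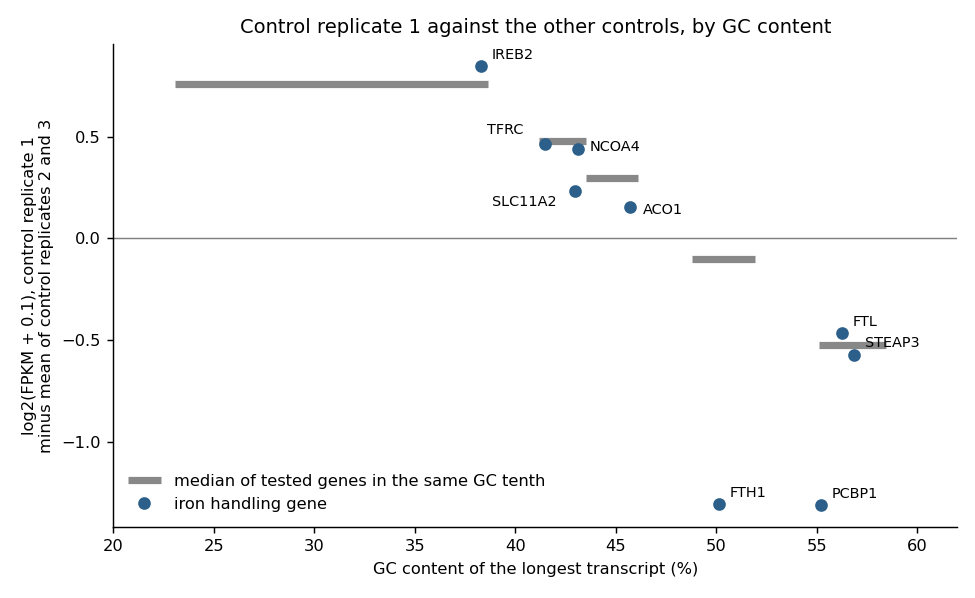
Difference of log2(FPKM + 0.1) between control replicate 1 and the mean of control replicates 2 and 3 (vertical axis) against the GC content of the longest transcript in percent (horizontal axis), for the 9 tested iron handling genes. Grey bars give the median of all tested genes in the same GC bin, of 10. FTH1 and PCBP1, both at -1.31, lay well below their bars of -0.10 and -0.52.

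In absolute terms the storage genes exceeded the sensing and uptake genes in both groups, on the per-length FPKM scale. With the HYOU1 shRNA the order of mean levels was FTH1 (887 FPKM), FTL (661), PCBP1 (121), NCOA4 (64.6), STEAP3 (26.5), ACO1 (12.7), TFRC (9.46), SLC11A2 (7.43), IREB2 (5.20) and SLC40A1 (0.00419). In controls it was FTL (809 FPKM), FTH1 (782), PCBP1 (97.6), NCOA4 (61.9), TFRC (31.5), STEAP3 (24.5), ACO1 (17.6), SLC11A2 (10.3), IREB2 (8.53) and SLC40A1 (0.00411). TFRC stood below STEAP3 and ACO1 in the order with the HYOU1 shRNA and above both in that of the controls. In controls the values of FTL and FTH1 overlapped, as did those of PCBP1 and NCOA4, TFRC and STEAP3, STEAP3 and ACO1, and SLC11A2 and IREB2. Without control replicate 1, only TFRC and STEAP3 of these pairs still overlapped in controls, with means of 27.9 and 27.5 FPKM. FTH1 (976 FPKM) then stood above FTL (891 FPKM) in controls, so that part of the order rested on 1 library. With the HYOU1 shRNA none of the same pairs overlapped.

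Genes that overlap these members could share reads, since no strand-marking step is named in the labels' protocols. They were weakly expressed. The highest value in any library was 0.482 FPKM for PCBP1-AS1, 0.381 FPKM for STEAP3-AS1, 0.172 FPKM for the antisense gene AC027228.1 in IREB2 and 0.0813 FPKM for BEST1 beside FTH1. A small RNA or pseudogene within TFRC reached 1.89 FPKM, and one within SLC11A2 reached 1.08 FPKM.

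The genes whose values ran closest to TFRC over the 6 libraries were PPP3CB, TTL, ABCB10, SOAT1 and HOXC13-AS. Likeness was the root mean square distance between log2(FPKM + 0.1) values centred on each gene's mean, over all tested genes outside the 10. It was 0.04 for PPP3CB, the beta catalytic subunit of calcineurin, and 0.06 for TTL, the tubulin tyrosine ligase. ABCB10, a transporter of the inner mitochondrial membrane that stabilises the iron importer mitoferrin-1, was at 0.07. SOAT1, which esterifies cholesterol, and HOXC13-AS, an antisense RNA at the HOXC13 locus, were both at 0.11. PPP3CB stood at 2.55, 2.67 and 2.22 FPKM in HYOU1 shRNA libraries 1 to 3, and at 10.3, 7.60 and 6.95 FPKM in control shRNA libraries 1 to 3. SOAT1 was at 20.3, 19.9 and 18.5 FPKM in HYOU1 shRNA libraries 1 to 3, and at 96.1, 63.2 and 58.9 FPKM in control shRNA libraries 1 to 3. Each had its highest value in control replicate 1, as TFRC did. They were found by the same contrast, so no test is attached to their likeness, and ABCB10 is tested below as one of the listed iron genes.

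**Figure D4:**
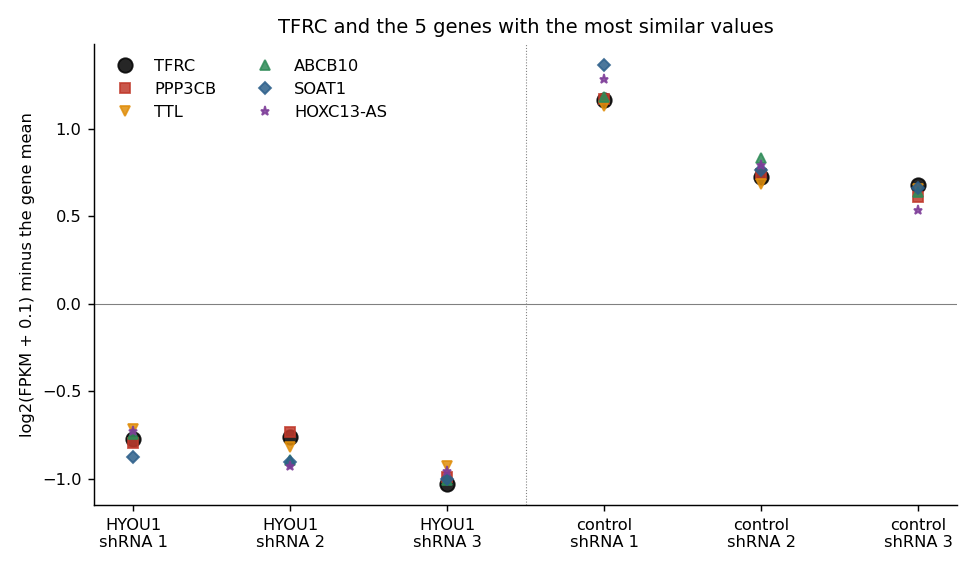
Log2(FPKM + 0.1) minus the gene's mean over the 6 libraries (vertical axis) for TFRC and the 5 genes closest to it, by library (horizontal axis), with HYOU1 shRNA libraries left of the dotted line and control shRNA libraries right of it. All 6 genes lay below 0 in each HYOU1 shRNA library and above 0 in each control, highest in control replicate 1.

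Beyond the 10 genes, few mRNAs of the iron network passed the test over all 6 libraries. Of the 122 other genes listed, 97 were tested, 2 rose (ERFE and MYC), 6 fell (ABCB10, HERC2, HFE, FECH, MARCHF8 and SH3BP4) and 89 did not pass (limma, adjusted p under 0.05 over all 12448 genes). This is 8.25% called, beside 12.3% of all genes tested, with a median log2 difference of -0.02. Of all genes tested 5.66% were called lower, so no direction is read from the 6 that fell. Leaving out control replicate 1 gave 19 that rose and 24 that fell, where 44.3% of all genes were called. The GC correction gave the same 2 numbers, where 40.6% were called, and each set included all 8 genes named here. Without HYOU1 shRNA replicate 1, 2 or 3 none rose, and 2, 0 and 0 fell. Without control replicate 2, 1 rose and 2 fell, and without control replicate 3, 1 rose and 3 fell. With voom on the recovered fragments, which called 14.5% of all genes, 2 rose and 7 fell. Of the 25 not tested, a pair of genes chosen after their values were seen concern the supply of iron to the body. TF, encoding transferrin itself, averaged 0.00215 FPKM with the HYOU1 shRNA and 0.00207 FPKM in controls. HAMP, encoding hepcidin, was above 0 in 1 library, HYOU1 shRNA replicate 3, at 0.0570 FPKM.

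Among 10 tested genes of export and hepcidin control, 1 rose and 1 fell. ERFE encodes erythroferrone, a hormone that lowers hepcidin and is best known from erythroblasts. It was at 4.66, 4.66 and 5.01 FPKM in HYOU1 shRNA libraries 1 to 3, and at 1.92, 3.15 and 2.496 FPKM in control shRNA libraries 1 to 3. The groups did not overlap, and the log2 difference was 0.92 with a standard error of 0.20, a 1.89-fold higher level (limma, adjusted p = 0.0328). The log2 difference of ERFE was 0.75 without control replicate 1. EPOR, the erythropoietin receptor gene and an erythroid marker chosen after its values were seen, was at 10.1, 9.26 and 10.5 FPKM in HYOU1 shRNA libraries 1 to 3, and at 4.34, 6.59 and 8.05 FPKM in control shRNA libraries 1 to 3, also without overlap. Its part in this result was not tested.

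HFE encodes the protein that binds the transferrin receptor and is mutated in hereditary hemochromatosis. It was at 3.29, 3.49 and 3.56 FPKM in HYOU1 shRNA libraries 1 to 3, and at 5.23, 6.24 and 6.34 FPKM in control shRNA libraries 1 to 3. All HYOU1 shRNA libraries lay below all controls. It fell by 0.76 on the log2 scale (standard error 0.14, limma adjusted p = 0.0195), and it was -0.85 when control replicate 1 was left out.

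Of 4 tested genes of storage, chaperones and ferritin turnover, HERC2 fell. It encodes a ubiquitin ligase that marks NCOA4 for destruction when iron is plentiful. Its level was 2.496, 2.19 and 2.44 FPKM in HYOU1 shRNA libraries 1 to 3, and 5.47, 5.51 and 5.58 FPKM in control shRNA libraries 1 to 3. The controls lay close together, and the log2 difference was -1.19 (standard error 0.13, limma adjusted p = 0.00554), which is 2.27-fold lower. It stayed at -1.19 when control replicate 1 was left out.

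Of 10 tested genes for the traffic of the transferrin receptor, 2 fell and none rose, where 12.3% of all genes were called. Without control replicate 1, 4 rose and 3 fell, where 44.3% of all genes were called. After the GC correction 3 rose and 3 fell, where 40.6% were called, so the role had no single direction. MARCHF8, a ubiquitin ligase that sends the receptor to lysosomes, is listed under a date in the deposited table and was matched by its identifier. It was at 5.28, 4.39 and 5.03 FPKM in HYOU1 shRNA libraries 1 to 3, and at 7.65, 6.80 and 6.95 FPKM in control shRNA libraries 1 to 3, a log2 difference of -0.53 (standard error 0.13, limma adjusted p = 0.0460). SH3BP4, an adaptor that controls the internalisation of the receptor, was at 8.78, 8.35 and 8.56 FPKM in HYOU1 shRNA libraries 1 to 3, and at 11.2, 11.9 and 11.9 FPKM in control shRNA libraries 1 to 3. Its log2 difference was -0.44 (standard error 0.11, limma adjusted p = 0.0447). Both genes had all HYOU1 shRNA libraries below all controls. Their log2 differences were -0.48 for MARCHF8 and -0.46 for SH3BP4 when control replicate 1 was left out.

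None of the 3 genes that promote the decay of TFRC mRNA through its 3′ UTR was called over all libraries, by limma or by voom, and none had an unadjusted p under 0.05. After the GC correction 2 were called, both lower, where 40.6% of all genes were called. ZC3H12A, which encodes the endonuclease Regnase-1, averaged 10.2 ± 0.597 FPKM with the HYOU1 shRNA and 11.9 ± 2.78 FPKM in controls (SD, n = 3 each), a log2 difference of -0.19 (limma, adjusted p = 0.541). It was -0.39 without control replicate 1 (limma, adjusted p = 0.00523), where it was called, as were 44.3% of all genes. After the GC correction it was -0.53 (limma, adjusted p = 0.00196). RC3H2, encoding Roquin-2, which acts on stem-loops, averaged 4.92 ± 0.316 FPKM with the HYOU1 shRNA and 7.16 ± 2.76 FPKM in controls (SD, n = 3 each), a log2 difference of -0.47 (limma, adjusted p = 0.262), and -0.18 when control replicate 1 was left out (limma, adjusted p = 0.189). It was called after the GC correction, at -0.28 (limma, adjusted p = 0.0444).

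Among 6 transcription factors acting on iron genes MYC rose. MYC is reported to activate TFRC and IREB2 and to repress FTH1. It was at 218, 213 and 215 FPKM in HYOU1 shRNA libraries 1 to 3, and at 98.4, 142 and 150.4 FPKM in control shRNA libraries 1 to 3. The groups did not overlap, and the log2 difference was 0.75 (standard error 0.17, limma adjusted p = 0.0399). Leaving out control replicate 1 gave 0.56.

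Of 10 tested genes of heme synthesis FECH fell, and of 21 tested genes of mitochondrial iron and iron-sulfur clusters ABCB10 fell. FECH encodes ferrochelatase, which puts iron into the heme ring, and ABCB10 is known to form a complex with it and with mitoferrin-1. FECH was at 5.12, 5.04 and 4.18 FPKM in HYOU1 shRNA libraries 1 to 3, and at 7.23, 7.29 and 7.06 FPKM in control shRNA libraries 1 to 3, a log2 difference of -0.59 (standard error 0.13, limma adjusted p = 0.0356). ABCB10 was at 2.05, 1.84 and 1.69 FPKM in HYOU1 shRNA libraries 1 to 3, and at 8.05, 6.31 and 5.50 FPKM in control shRNA libraries 1 to 3, a log2 difference of -1.76 (standard error 0.18, limma adjusted p = 0.00536). ABCB10 thus had the lowest difference of the 97 genes, 3.40-fold lower. Without control replicate 1 the log2 differences were -1.62 for ABCB10 and -0.58 for FECH.

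No gene passed in the other 4 roles. For the 6 genes of uptake and reduction none had an unadjusted p under 0.05. SLC39A14, which encodes the metal importer ZIP14, averaged 43.5 ± 1.24 FPKM with the HYOU1 shRNA and 41.2 ± 3.28 FPKM in controls, and CYBRD1, a ferric reductase, averaged 18.3 ± 1.38 FPKM with the HYOU1 shRNA and 16.2 ± 3.56 FPKM in controls (SD, n = 3 each). Without control replicate 1, 44.3% of all genes were called. CYBRD1 was then called at a log2 difference of 0.36 (limma, adjusted p = 0.0111) and SLC39A14 was not, at 0.15. Of 7 genes of sensing, 2 had an unadjusted p under 0.05 and voom called 1, lower. Log2 differences of the 7 ran from -0.87 to 0.43, and the 2 given here are those with the highest mean. EPAS1, which encodes HIF-2 alpha and has an IRE in its 5′ UTR, averaged 38.1 ± 0.834 FPKM with the HYOU1 shRNA and 33.7 ± 1.42 FPKM in controls, and PFN2, a profilin, averaged 83.6 ± 1.42 FPKM with the HYOU1 shRNA and 78.8 ± 10.7 FPKM in controls (SD, n = 3 each). Without control replicate 1 PFN2 was called at a log2 difference of 0.20 (limma, adjusted p = 0.0171) and EPAS1 was not, at 0.14. A processed pseudogene on the same strand overlaps PFN2 and averaged 5.34 FPKM with the HYOU1 shRNA and 6.13 FPKM in controls.

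In heme transport and breakdown 0 of 11 genes were called by limma or by voom, and 2 had an unadjusted p under 0.05. BLVRB, a biliverdin reductase, had a log2 difference of 0.11 and PGRMC1, a heme-binding membrane protein, one of 0.02. Without control replicate 1, 44.3% of all genes were called. BLVRB was then at -0.15 and PGRMC1 was called at 0.26 (limma, adjusted p = 0.00640). In cytosolic iron-sulfur assembly 0 of 9 were called by either, and 2 had an unadjusted p under 0.05. Both CIAO1 and CIAO2B belong to the complex that hands clusters to target proteins. CIAO1 had a log2 difference of -0.01, and -0.03 without control replicate 1. CIAO2B was at 85.2, 78.0 and 84.8 FPKM in HYOU1 shRNA libraries 1 to 3, and at 21.4, 56.8 and 60.5 FPKM in control shRNA libraries 1 to 3, without overlap. Its log2 difference of 0.98 had a standard error of 0.39 (limma, adjusted p = 0.144), and it was 0.50 and called without control replicate 1 (limma, adjusted p = 0.000647).

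**Figure D5:**
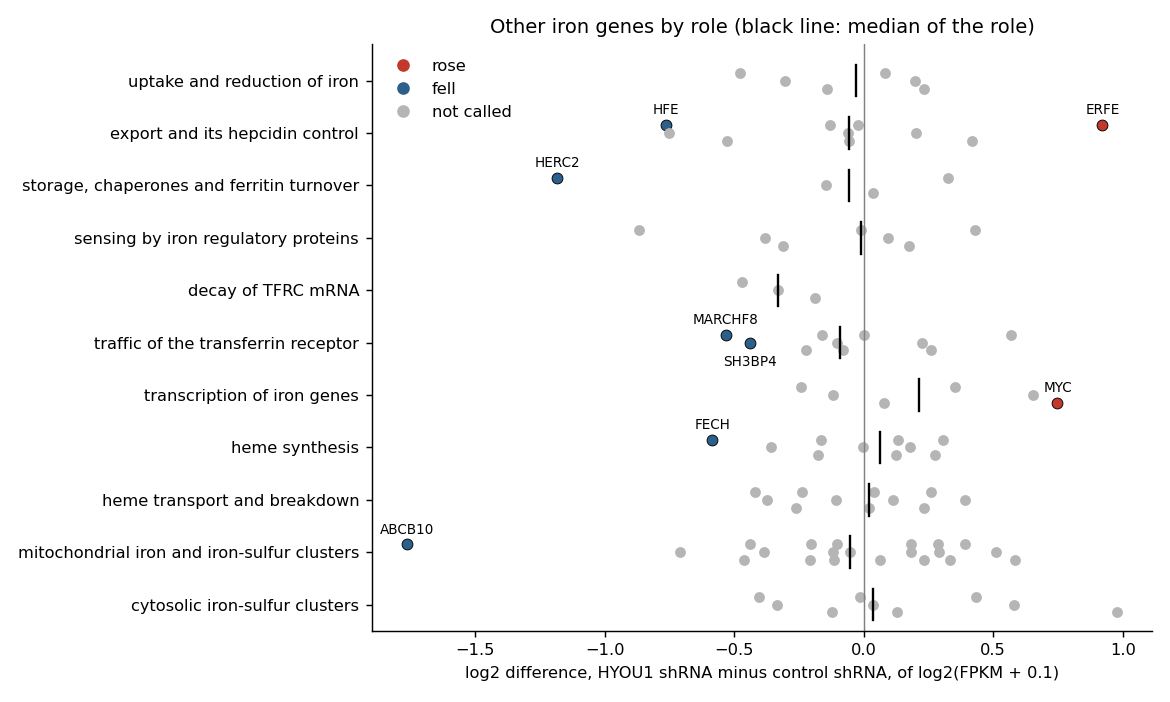
Log2 difference of HYOU1 shRNA minus control shRNA (horizontal axis) for the 97 tested iron genes outside the 10, by role (vertical axis). Each point is a gene, red if it rose, blue if it fell and grey if not called, and the black line is the median of the role. The 8 named genes passed, from ABCB10 at -1.76 to ERFE at 0.92.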

How the data were processed

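Gene expression was measured by RNA sequencing of polyadenylated RNA in 6 libraries. The authors deposited 1 table of FPKM values with the gene length behind each, and FPKM times length came out as whole fragments for 100.0% of values to within 0.01 fragments. The aligner and counter: not given in the sources used here. Each of the 58735 identifiers and its coordinates matched GENCODE release 29 on GRCh38, and 27 names differed. The deposited scale equalled median-of-ratios size factors up to a constant.

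Values were transformed to log2(FPKM + 0.1), which understates changes of low genes. The 12448 genes averaging 1 FPKM or more were tested by limma 3.58.1 (R 4.3.3, trend and robust priors), with Benjamini-Hochberg adjustment over all of them and a threshold of 0.05. The GC correction removed from each library a lowess trend (span 0.3) on GC content, taken from each longest transcript, left 6 genes without a GC value as they were, and also removes any real difference that follows GC content. FPKM are not counts, so no count model was the main test, and limma's voom on the recovered fragments was an alternative.

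The 10 genes, the gene lists and the tests were chosen with earlier results of these data known. Named genes are the 10, HYOU1, up to 4 called genes per role (or, with none called, the 2 with the highest mean), the 5 genes closest to TFRC, and pseudogenes or overlapping genes of the 10. TF, HAMP, ABCG2, CP, EPOR, BACH1, HMOX1 and FBXL5 fall outside that rule and were chosen after their values were seen. Markers of macrophages, fibroblasts and biliary cells were summed as well. Of 8 macrophage markers none averaged 1 FPKM (sum 0.583 to 0.922 FPKM with the HYOU1 shRNA and 0.226 to 0.592 FPKM in controls). Of 6 fibroblast markers 3 did (9.17 to 9.54 FPKM with the HYOU1 shRNA and 9.19 to 10.6 FPKM in controls), and of 6 biliary markers 4 did (63.6 to 68.0 FPKM with the HYOU1 shRNA and 52.3 to 58.6 FPKM in controls). A further marker list is reported only in part.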

Additional observations from a re-analysis of the deposited data

How the results depend on the processing

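TFRC kept a log2 difference of -1.80 to -1.56 under all 17 alternatives. Over those alternatives 0 (without HYOU1 shRNA replicate 3) to 6 of the 10 genes were called. Against 1526 genes called across the table, 770 were called with no filter, 938 with a filter at a mean of 5 FPKM, 940 with the replicate block, 5048 after the GC correction, 4504 after it with the block, and 49 to 5518 when 1 library was left out (49 without HYOU1 shRNA replicate 3, 5518 without control shRNA replicate 1). Against 2 other iron genes that rose, the counts in the same order were 1, 1, 0, 19, 17 and 0 to 19. Against 6 that fell they were 3, 3, 3, 24, 17 and 0 to 24, and TPM scaling gave 3. Where the count of rises was 0, limma gave 10 at an unadjusted p under 0.05 with the block and 5 or 6 without a HYOU1 shRNA replicate. Voom was not run under those settings, and over all libraries without the block it gave 2 rises and 7 falls. Where the count of falls was 0, without HYOU1 shRNA replicate 2 or 3, 8 had an unadjusted p under 0.05. ABCB10, HERC2, HFE and ERFE averaged under 5 FPKM and were not tested under that filter. Of their other 16 alternatives, ABCB10 and HERC2 lost their calls under 2 each, HFE under 5 and ERFE under 6. Of 17, MYC lost its call under 6 and FECH, MARCHF8 and SH3BP4 under 8 each. The cause was not tested. Same-numbered libraries had deviations from their group means that correlated at 0.12, -0.09 and 0.17, so the numbers were not taken to pair libraries, and the fit with the block serves only as an alternative. The median over all genes moved from 0.04 to 0.07 under TPM scaling and to -0.01 under quantile normalization. With 3 libraries a group, 1 of them apart, small differences of abundant genes such as FTH1 and PCBP1 could not be resolved.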

Other observations

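A pair of iron genes too low to enter the test had groups that did not overlap, and both were chosen after their values were seen. Of all genes tested 20.6% were lower with the HYOU1 shRNA without overlap, so nothing is read from this pair. ABCG2, a transporter that exports heme and porphyrins, was at 1.34, 1.44 and 1.27 FPKM in HYOU1 shRNA libraries 1 to 3, and at 0.337, 0.190 and 0.309 FPKM in control shRNA libraries 1 to 3. CP, encoding ceruloplasmin, the plasma ferroxidase that works with ferroportin, was at 0.191, 0.261 and 0.290 FPKM in HYOU1 shRNA libraries 1 to 3, and at 1.41, 0.680 and 0.680 FPKM in control shRNA libraries 1 to 3. BACH1, a heme-binding repressor of ferritin and HMOX1 genes, was at 15.7, 16.2 and 14.8 FPKM in HYOU1 shRNA libraries 1 to 3, and at 15.1, 8.22 and 7.70 FPKM in control shRNA libraries 1 to 3. Control replicate 1 lay within the HYOU1 shRNA range and the other controls far below it. HMOX1, the heme oxygenase that BACH1 represses, was at 7.36, 7.72 and 6.23 FPKM in HYOU1 shRNA libraries 1 to 3, and at 5.46, 11.3 and 9.92 FPKM in control shRNA libraries 1 to 3. FBXL5, the ubiquitin ligase subunit that marks IRP2 for destruction, was at 7.35, 7.69 and 6.95 FPKM in HYOU1 shRNA libraries 1 to 3, and at 6.82, 5.19 and 4.50 FPKM in control shRNA libraries 1 to 3. These last 3 genes were also chosen after their values were seen. They were not called over all libraries (limma, adjusted p = 0.145, 0.552 and 0.153 for BACH1, HMOX1 and FBXL5). Without control replicate 1, where 44.3% of all genes were called, they were called at log2 differences of 0.96, -0.57 and 0.59. Since they were chosen by their values, nothing is read from these calls or their directions.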
